A study of Macaca fascicularis with 12 samples.

Results

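Glutamate and GABA receptor subunits were described in the brains of 3 cynomolgus macaques, adult males, that carried a baculovirus vector in one hemisphere and a mock preparation in the other. The members were all probe sets whose single gene symbol in the array annotation names an ionotropic (GRIA, GRIK, GRIN, GRID) or metabotropic (GRM) glutamate receptor, or a GABA-A (GABRA, GABRB, GABRG, GABRD, GABRE, GABRQ) or GABA-B (GABBR) receptor. This gave 27 of 52766 probe sets, for 18 of 14132 named genes. One of the 18 genes, GRID2IP, matches the rule by its letters but encodes delphilin, a scaffold that binds the delta receptor GluD2, which leaves 17 genes for receptor subunits. A table of Macaca fascicularis genes (assembly T2T-MFA8v1.1) holds all 18 symbols and 26 more that fit the rule, among them GRIA2, GRIN2B, GRM5 and both GABBR genes, which were not analysed here.

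The baculovirus BV-HSVtk (BV) was injected at 4 places in the striatum of the left hemisphere, 10 µL with 1e8 particles each, and virus-free Sf9 insect cell medium taken through the same purification (mock) at matching sites on the right. Tissue was taken 2 days later. There were 12 arrays, 6 BV and 6 mock, with 2 pieces of about 100 mg per hemisphere: replicates 1 and 2 came from animal 1, 3 and 4 from animal 2, and 5 and 6 from animal 3. Odd numbers are piece 1 and even numbers piece 2. Virus was always on the left, so side and treatment cannot be told apart. Baculoviruses infect insect cells and enter mammalian cells without replicating, and HSVtk is the thymidine kinase of herpes simplex virus.

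Glutamate is the main excitatory and GABA the main inhibitory transmitter of the brain. AMPA, kainate and NMDA receptors are ion channels of 4 subunits opened by glutamate, and GABA-A receptors are chloride channels built from several subunits, so the subunit mix sets speed, drug response and location. In the striatum, medium spiny neurons are GABAergic and receive glutamate from cortex and thalamus. Thalamic relay neurons are glutamatergic and carry a different set of subunits.

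The pieces differed in brain region. The 6 arrays called striatum-rich (BV replicates 4 and 6, mock replicates 2, 4, 5 and 6) had a mean log2 signal of 8.83 to 10.22 over 8 measured striatal medium spiny neuron markers, against 5.90 to 7.40 in the other 6. The ranges lay apart for 7 of these 8 markers, among them PPP1R1B (DARPP-32), DRD2 and PDE10A, against 3.79% of all probe sets tested. The classes rest on striatal marker levels, so this separation follows from the choice and is no independent evidence. Over 7 measured thalamic markers the striatum-rich arrays had 6.21 to 7.51 and the others 7.78 to 9.11, with the ranges apart for TCF7L2 and LHX9. PRKCD alone of the 7 went the other way, at 8.01 to 8.85 in striatum-rich and 6.93 to 8.31 in other pieces. Pan-neuronal markers ran from 9.64 to 10.28 in striatum-rich and from 10.17 to 11.09 in other pieces. Means over oligodendrocyte, astrocyte, microglial and endothelial markers overlapped between the classes; those of 3 cortical markers did not, at 8.95 to 9.47 and 7.63 to 8.83, with NRGN alone of the 3 apart. The part of these cell types in the receptor values was not tested. This class is not a label of the study but was read from marker levels of the same arrays, so differences between classes are descriptions with no test. Of the striatum-rich arrays, 5 were piece 2 and 1 was piece 1, and 4 were mock and 2 BV. Animals 1, 2 and 3 gave 1, 2 and 3 of the striatum-rich arrays and 3, 2 and 1 of the others. Class differences over all arrays can therefore also hold differences between animals, between piece 1 and piece 2 arrays, and between treatments. The piece 1 arrays had median intensities of 50.2 to 62.8 and the piece 2 arrays 25.4 to 32.7 before normalization. As a check of the treatment labels, 8 interferon-stimulated genes were compared, and their mean log2 signal was 10.09 to 11.42 on BV and 8.09 to 8.90 on mock arrays.

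All levels below are log2 of quantile-normalized intensity with 3.49 added. They compare arrays for 1 probe set and not genes with each other, since probes bind with different strength. Of the 27 probe sets, 19 for 13 genes had a mean log2 signal at or above the filter of 4.95 and were tested. The other 8 were dimmer: 3 of GRIN2C, 1 each of GRIN1, GRIN3A, GRM7 and GABRQ, and 1 of 2 for GABRA2. Tissue pieces mix cell types, so fewer cells of a type and less RNA per cell cannot be told apart.

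Between the tissue classes the brightest probe sets of the AMPA receptor subunits GRIA1 and GRIA4 differed in opposite directions, as did those of GRIK2 and GABRA3. The second probe sets of GRIA4 and GRIK2 had differences of only 0.06 and 0.09. GRIA1 and GRIK2 signals were higher in striatum-rich pieces by 0.99 and 1.07, while GRIA4, GABRA3 and GRIN3B were lower by 1.36, 1.26 and 0.58. Each class had 6 arrays, which came unevenly from the same 3 animals. These 5 genes, chosen after their values were seen, are the tested genes whose brightest probe set differed by at least 0.5. Each differed in the same direction in 3 of 3 animals and within both array sets. Of the 19 tested probe sets 5 met all of this (26.3%), against 10.4% of all 31660 probe sets tested. Piece 1 and animal 1 each held only 1 striatum-rich array, and piece 2 and animal 3 only 1 other array. The comparisons thus rest on few arrays, and GRIN3B differed by only -0.08 within piece 1. None of the 19 had ranges of the classes wholly apart, against 3.79% of all tested. The median difference over the 19 was 0.16, with 14 above 0, and over all tested it was -0.01, with 49.2% above 0. Without scaling of the arrays the median over all tested was -0.45 and most small differences turned below 0, but the 5 genes kept their directions there and with median centring.

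**Figure D1:**
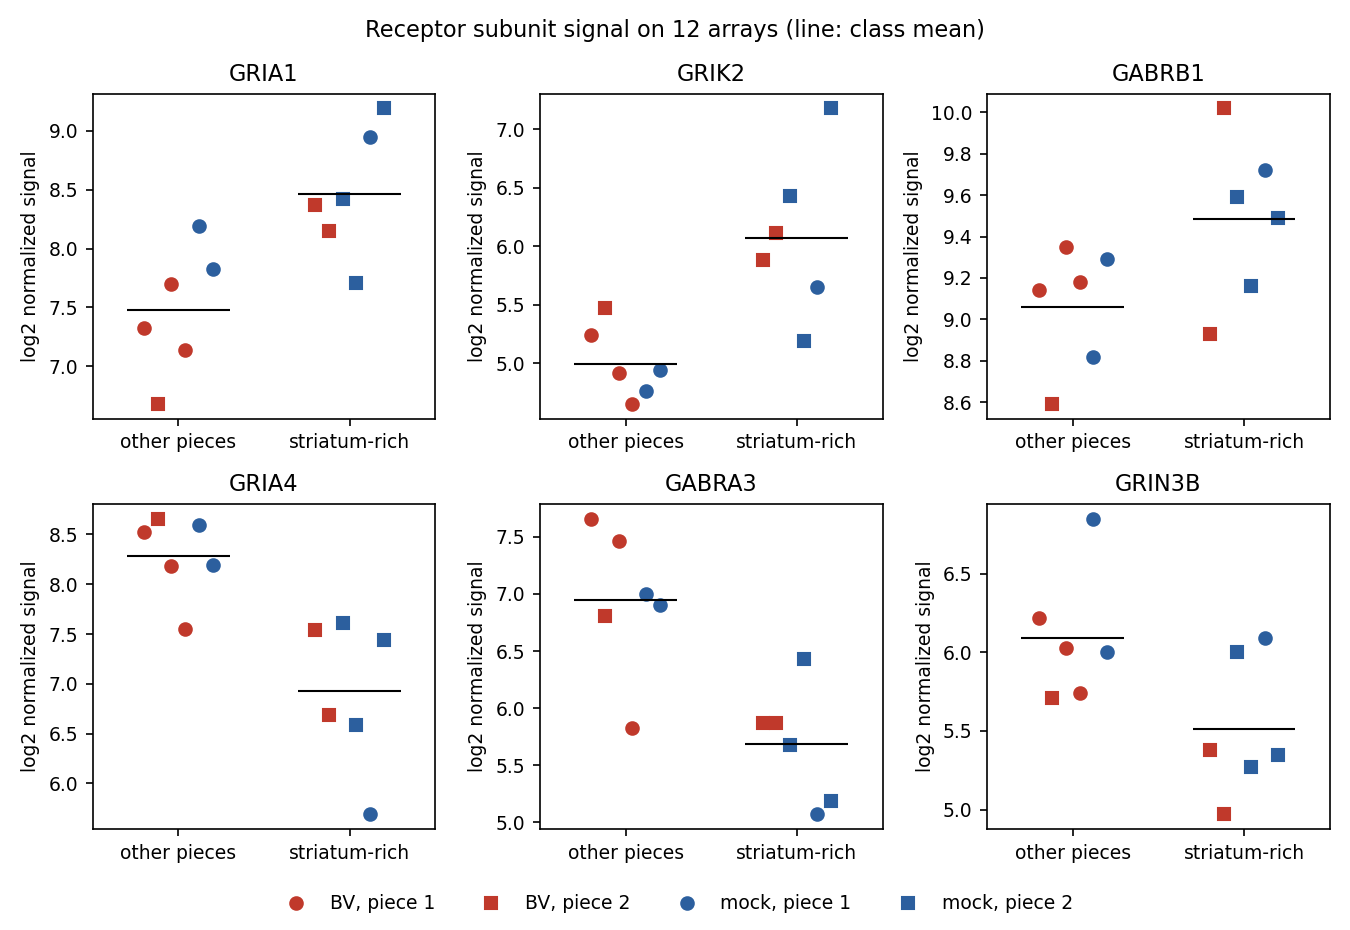
Log2 normalized signal of the brightest probe set of GRIA1, GRIK2, GABRB1, GRIA4, GABRA3 and GRIN3B on 12 arrays, by tissue class on the x axis, with colour for treatment, symbol for piece number and a line for the class mean. The class means of GRIA1 lie at 8.46 and 7.48 and those of GRIA4 at 6.93 and 8.28, and in every panel at least 1 array of a class lies within the range of the other.

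GRIA1 encodes GluA1, an AMPA receptor subunit whose traffic to synapses changes with activity. Its brighter probe set (MmugDNA.20338.1.S1_at) had a lowest, median and highest signal of 7.71, 8.39 and 9.19 in striatum-rich and 6.68, 7.51 and 8.19 in other pieces. The highest arrays were mock replicates 6 and 5 and the lowest was BV replicate 2, with the overlap between 7.71 (mock replicate 4, striatum-rich) and 8.19 (mock replicate 1, other). The class difference corresponds to 1.98-fold and was 1.02, 0.28 and 1.63 in animals 1, 2 and 3. It was 1.31 within piece 1, where mock replicate 5 is the only striatum-rich array, and 1.69 within piece 2, where BV replicate 2 is the only other one. On mock arrays alone it was 0.56 and on BV arrays alone 1.05. The dimmer GRIA1 probe set differed in the same direction, by 0.41, with 5.19 to 6.13 in striatum-rich and 4.73 to 5.31 in other pieces.

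GRIA4 encodes GluA4, a subunit that gives AMPA receptors fast kinetics. Its brighter probe set (MmugDNA.7637.1.S1_at) had a lowest, median and highest signal of 5.69, 7.07 and 7.61 in striatum-rich and 7.55, 8.36 and 8.66 in other pieces. The classes overlapped narrowly: BV replicate 5, an other piece, had 7.55, below mock replicate 2 at 7.61. Over all arrays the signal was 2.56-fold lower in striatum-rich pieces, by 1.36 on the log2 scale. Within animals 1, 2 and 3 it was lower by less, 0.98, 1.12 and 0.94. The means of these animals were 8.35, 7.62 and 6.84. Within piece 1 the difference was -2.52 and within piece 2 -1.49. The dimmer GRIA4 probe set did not show this, with a class difference of 0.06 and signals of 5.29 to 5.75 on all 12 arrays. Its spread over the 12 arrays, an SD of 0.15, lay at the 2.0 percentile of all tested probe sets, against 95.4 for the brighter one.

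**Figure D2:**
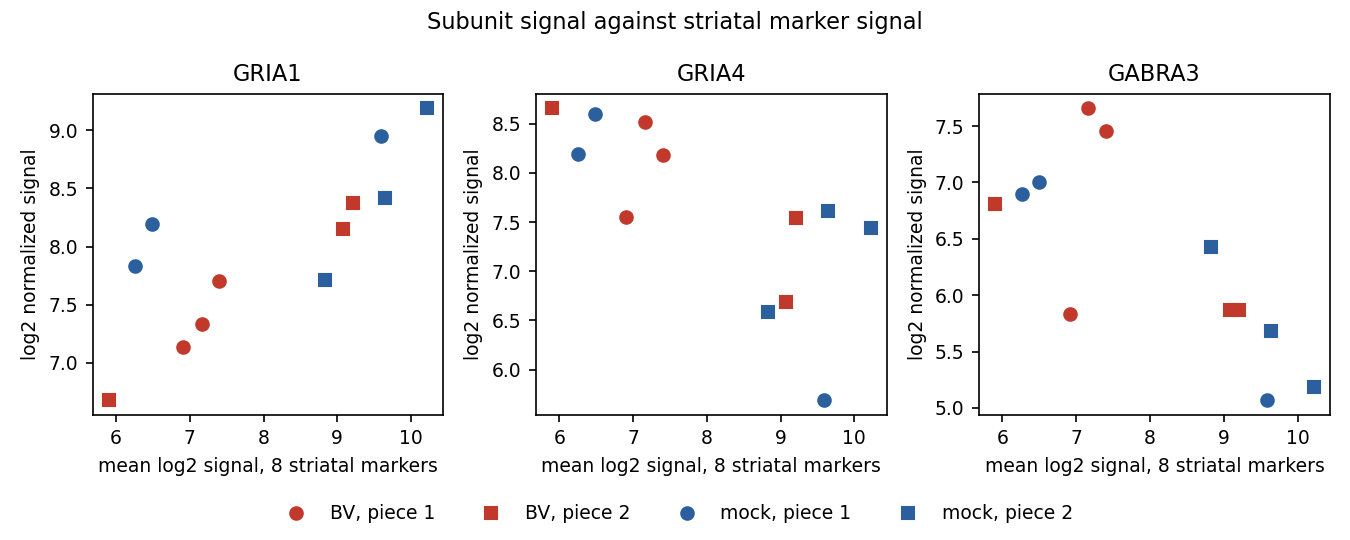
Log2 normalized signal of GRIA1, GRIA4 and GABRA3 on the y axes against the mean log2 signal of 8 striatal markers on the x axes, 1 point per array, with colour for treatment and symbol for piece number. The arrays form a group at marker signals of 5.90 to 7.40 and another at 8.83 to 10.22; GRIA4 and GABRA3 points are mostly lower in the second group and GRIA1 points mostly higher.

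The kainate receptor subunits GRIK1 and GRIK2 encode GluK1 and GluK2, which form channels on both sides of the synapse. The brighter GRIK2 probe set (MmugDNA.35699.1.S1_at) had 5.19, 5.99 and 7.18 in striatum-rich and 4.65, 4.93 and 5.47 in other pieces. Mock replicate 6 was the highest and mock replicate 4 the only striatum-rich array below the highest of the other class, BV replicate 2. The difference was 1.27, 0.60 and 1.66 in the 3 animals and 0.74 and 0.68 within piece 1 and piece 2. Mock replicate 6 also had the highest actin 3'/5' signal ratio, 2.40 against 1.10 to 1.4 on the other 11 arrays, and the part of that in its GRIK2 signal was not tested. The second GRIK2 probe set, of almost the same mean signal (5.48 against 5.54), had a class difference of 0.09 and an SD of 0.19 over the 12 arrays. The single GRIK1 probe set had 5.53 to 6.93 in striatum-rich and 6.06 to 6.79 in other pieces, a difference of -0.22.

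Of the NMDA receptor genes only GRIN3B passed the filter. NMDA receptor channels of GluN1 with GluN2 subunits need glutamate together with glycine or D-serine. GRIN3B encodes GluN3B, a glycine-binding subunit best known from motor neurons. Its signals were 4.97, 5.36 and 6.09 in striatum-rich and 5.71, 6.01 and 6.85 in other pieces, so that mock replicates 2 and 5 lay among the other pieces. The difference of -0.58 shrank to -0.08 within piece 1 and -0.32 within piece 2, and to -0.20 with a term for piece number. GRIN1, the obligatory NMDA receptor subunit GluN1, had a dim probe set at a mean of 4.89. It had 2.99, 4.74 and 5.27 in striatum-rich and 4.88, 5.34 and 5.88 in other pieces, and its lowest values were on mock replicates 5 and 6. The 3 GRIN2C probe sets, for the subunit GluN2C, and the GRIN3A probe set had mean signals of 4.53, 3.61, 3.38 and 2.44. One of these, the dimmest GRIN2C probe set, had ranges just apart, with 2.87 to 6.19 in striatum-rich and 2.53 to 2.84 in other pieces, at a level where several arrays lie close to the floor.

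GRID1, the delta receptor subunit GluD1, which links to synapse-organizing cerebellins, had class differences of 0.36 and 0.45 in its 2 probe sets. The brighter had 6.68 to 7.41 in striatum-rich and 5.99 to 7.33 in other pieces, with the opposite direction in animal 2 (-0.43). The dimmer had 5.45 to 5.95 against 4.93 to 5.61 and kept its direction in all 3 animals and both array sets. GRID2IP varied little, at 9.13 to 9.86 on all 12 arrays, with a difference of -0.01. The only metabotropic member, GRM7, encodes the presynaptic receptor mGlu7, which dampens transmitter release. Its probe set was dim, with 2.5, 4.26 and 4.62 in striatum-rich and 4.40, 5.02 and 5.55 in other pieces. It was lower in striatum-rich pieces by 1.14, 0.60 and 0.74 in the 3 animals, and it was not tested.

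Among GABA-A receptor alpha subunits, which help set the response to benzodiazepines, GABRA3 stood lower in striatum-rich pieces while GABRA2 and GABRA4 differed less. GABRA3 (MmuSTS.4431.1.S1_at) had 5.07, 5.78 and 6.43 in striatum-rich and 5.83, 6.95 and 7.66 in other pieces. BV replicate 5, from animal 3, was the only array of the other class within the striatum-rich range. It also had the lowest thalamic marker mean of that class, 7.78. The part of region or animal in its GABRA3 signal was not tested. The difference over all arrays corresponds to 2.39-fold. It was -1.47, -1.03 and -0.45 in animals 1, 2 and 3 and -1.90 and -1.0 within piece 1 and piece 2. The animals had means of 6.79, 6.66 and 5.49. GABRA2, the alpha 2 subunit, had 6.11, 6.57 and 6.94 in striatum-rich and 5.75, 6.31 and 6.78 in other pieces. This difference of 0.26 became -0.13 within piece 1, and the second GABRA2 probe set was too dim to test.

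GABRA4, an alpha 4 subunit found in receptors that sense ambient GABA outside synapses, varied by animal more than by class. Its signal was 6.81 to 7.39 in animal 1, 8.66 to 9.73 in animal 2 and 6.41 to 8.31 in animal 3, so the 4 arrays of animal 2 lay above the other 8. This held for 0.467% of all tested probe sets. Means of the animals were 7.06, 9.17 and 7.70, and both treatments and both classes of animal 2 were high. With 1 animal at each level there is no test, and whether the RNA level or the binding of that animal's RNA to the probes differed was not tested. In animal 3, BV replicate 5, the only other piece, had the lowest signal of all 12, so the class difference was 1.72 there against -0.29 and -0.65 in animals 1 and 2. The neighbouring gene GABRB1 had no such pattern. GABRG3, a gamma 3 subunit, had its 4 arrays of animal 1 at 5.02 to 5.53, below the other 8 by only 0.01 (5.54 to 6.31). In all, 1 of 19 tested members had an animal wholly above the others and 1 wholly below, against 2.32% and 2.58% of all tested.

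**Figure D3:**
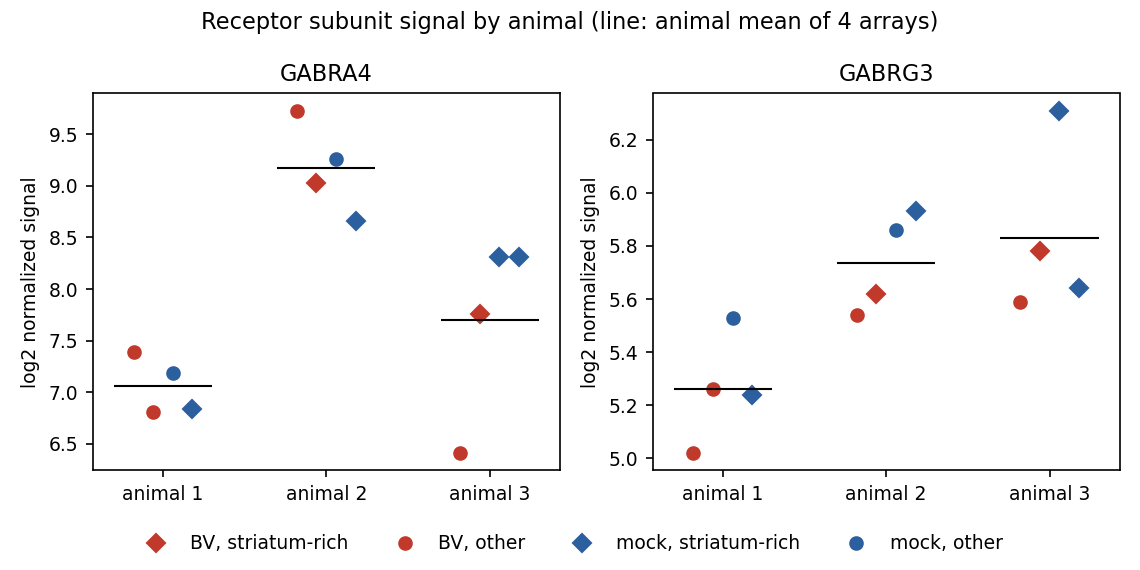
Log2 normalized signal of GABRA4 and GABRG3 by animal on the x axis, with colour for treatment, symbol for tissue class and a line for the mean of the 4 arrays of an animal. GABRA4 lies between 8.66 and 9.73 in animal 2 and at or below 8.31 in the others.

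GABRB1, a beta 1 subunit, had 3 tested probe sets. The brightest had 8.93, 9.54 and 10.02 in striatum-rich and 8.59, 9.16 and 9.35 in other pieces, a difference of 0.42, with the opposite direction in animal 2 (-0.28). The others had differences of 0.03 and 0.13. One of them had 4.84 on mock replicate 6 against 6.30 to 7.88 on the other 11 arrays. GABRE, an epsilon subunit, had 6.83 to 7.85 on all 12 arrays and a difference of 0.16, and GABRG3 a difference of 0.29. GABRQ, a theta subunit that neighbours GABRA3 on the assembly named above, was dim, with 4.36 to 4.98 in striatum-rich and 4.11 to 4.86 in other pieces.

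**Figure D4:**
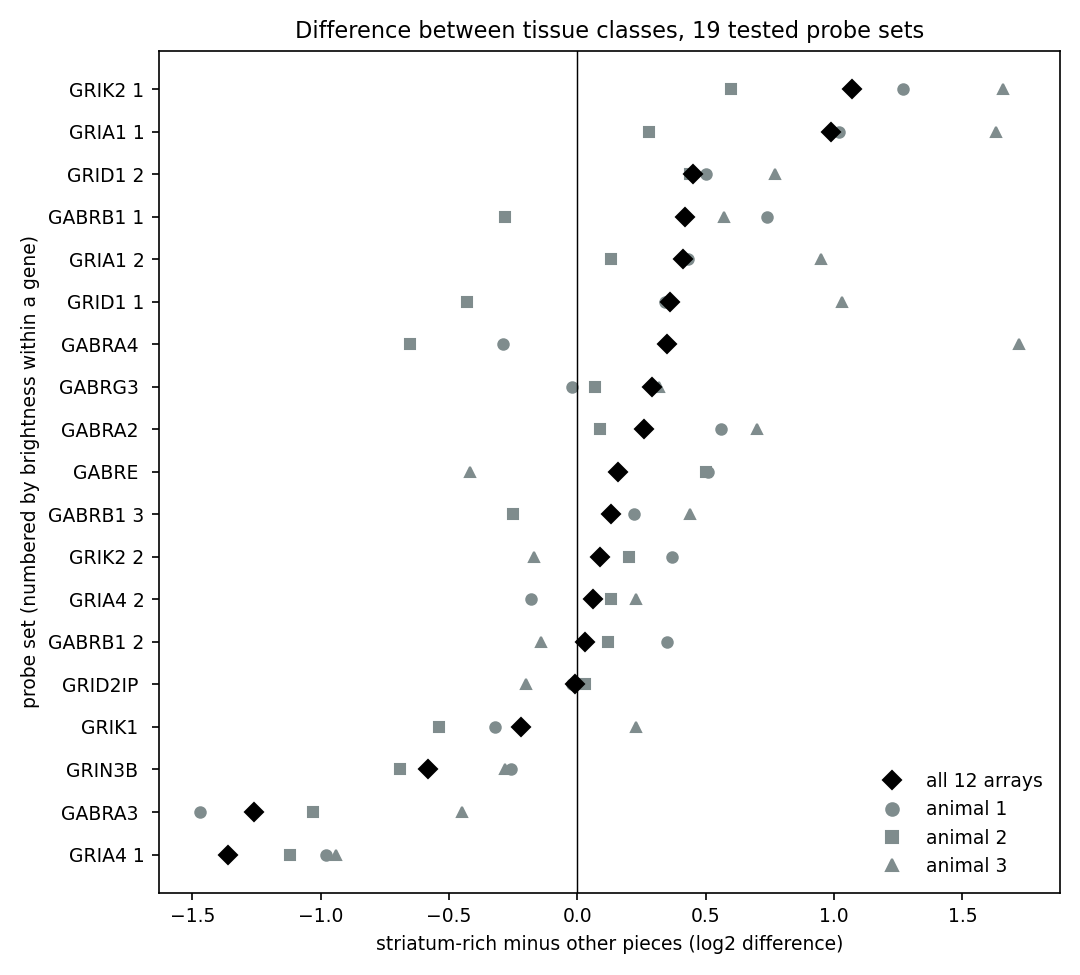
Striatum-rich minus other pieces, as the log2 difference on the x axis, for 19 tested probe sets on the y axis, over all 12 arrays (diamonds) and within each animal (grey symbols). GRIK2 1 and GRIA1 1 lie at 1.07 and 0.99, GRIA4 1 and GABRA3 at -1.36 and -1.26, and the animals scatter on both sides of 0 for most others.

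The comparison of BV with mock tissue asks whether the vector changed receptor transcripts. No member passed: 0 of 19 probe sets were called by limma at an adjusted p under 0.05, against 0.0284% of all tested, and 2 of 19 (10.5%) had an unadjusted p under 0.05, against 8.80% of all. Differences ran from -0.82 to 0.54 with adjusted p from 0.552 to 0.956 (n = 3 animals). Of the 19, 8 were higher in BV tissue (42.1%, against 46.9% of all tested) and 11 lower, with a median of -0.15 against -0.02 over all tested. The 3 animals pointed one way in 7 of 19 (36.8%), against 33.8% of all tested. In 0 of 19 did all 6 replicate pairs point one way, against 7.75% of all tested. A miss does not show that levels were alike, and 3 animals limit the precision. Region markers also differed between treatments. The 8 striatal markers had a median BV minus mock of -0.92, with 0 above 0. The 7 thalamic markers had a median of 0.86, with 6 above 0. Of these 7, 4 were higher at an unadjusted limma p under 0.05, and 0 passed after adjustment. The part of tissue class in the BV differences of the members was not tested.

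GRIA4 had the smallest p. Its BV arrays had 6.69, 7.86 and 8.66 and its mock arrays 5.69, 7.53 and 8.60, and the groups overlapped almost fully. The difference was 0.50 ± 0.14 (SE, n = 3 animals; limma adjusted p = 0.552), alike in the animals at 0.49, 0.47 and 0.56. The single pairs were not alike: it was 1.05 and 1.86 in pairs 2 and 5, -0.08, -0.01 and -0.75 in pairs 1, 3 and 6, and 0.95 in pair 4. In pairs 2 and 5 the BV piece was of the other class and the mock piece striatum-rich, while in pairs 1, 3, 4 and 6 both pieces were of the same class. The 4 same-class pairs had a mean difference of 0.03 ± 0.70 (SD). Single arrays moved the value: it was 0.21, 0.24 and 0.34 without mock replicates 5, 4 and 2, which are striatum-rich. It was 0.77 and 0.80 without mock replicates 3 and 6, of which replicate 6 is also striatum-rich and replicate 3 is not.

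Among the tested probe sets GRIA1 had the largest difference, with 6.68, 7.51 and 8.37 on BV and 7.71, 8.30 and 9.19 on mock arrays. BV tissue was lower by 0.82 ± 0.34 (SE, n = 3 animals; limma adjusted p = 0.564), or 1.77-fold, and this was so in 5 of 6 pairs. The animals had -1.30, 0.26 and -1.43. Without animal 2 the difference was -1.36 and passed (limma adjusted p = 0.00247), in a fit with 1 residual degree of freedom that called 1837 of 31660 probe sets. The different-class pairs had -1.73 and -1.81, and the same-class pairs a mean of -0.34 ± 0.77 (SD). The dimmer probe set had -0.22 ± 0.22.

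GABRA3 had 5.83, 6.34 and 7.66 on BV and 5.07, 6.06 and 7.0 on mock arrays. The difference was 0.54 ± 0.21 (SE, n = 3 animals; limma adjusted p = 0.564), with BV higher in 5 of 6 pairs and a mean over same-class pairs of 0.33. The animals were not alike, at 0.89, 0.00 and 0.72, and the difference was 0.27 without BV replicate 3, 0.32 without mock replicate 2 and 0.36 without animal 1. Further by rank of p came GABRG3 at -0.28 ± 0.15, GRID1 at -0.26 ± 0.15 and GRIN3B at -0.25 ± 0.17, with adjusted p of 0.573 to 0.601 in the limma fit. GABRG3 differed by -0.25, -0.31 and -0.29 in the animals, but its BV range of 5.02 to 5.78 overlapped the mock range of 5.24 to 6.31. It had -0.51 with the piece 1 arrays alone and -0.05 with the piece 2 arrays alone, and -0.17 without mock replicate 5. GRID1 had -0.46 and -0.06 in the array sets, and -0.07 without BV replicate 5 against -0.45 without BV replicate 6. GRIN3B ran from -0.11 without mock replicate 1 to -0.41 without animal 2, so a single array or animal moved each of these values by over 1.5 times. GABRA2 had a difference of -0.06 ± 0.16. Of the others, GABRB1 had -0.15, 0.47 and -0.20 in its 3 probe sets, GRIK2 -0.31 and 0.02, GRIK1 0.18, GABRA4 -0.24, GRID2IP 0.11 and GABRE 0.03. GRIN1, too dim to be tested, had means of 5.31 on BV and 4.47 on mock arrays. Its BV side was higher by 0.64, 0.12 and 1.73 in the animals, and same-class pairs had a mean of 0.64 ± 0.71 (SD). The brightest GRIN2C probe set, also dim and not tested, went the other way, with means of 4.15 and 4.92. Over the 19 probe sets the median was 0.03 in same-class and -0.32 in different-class pairs, against -0.02 and 0.00 over all tested.

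**Figure D5:**
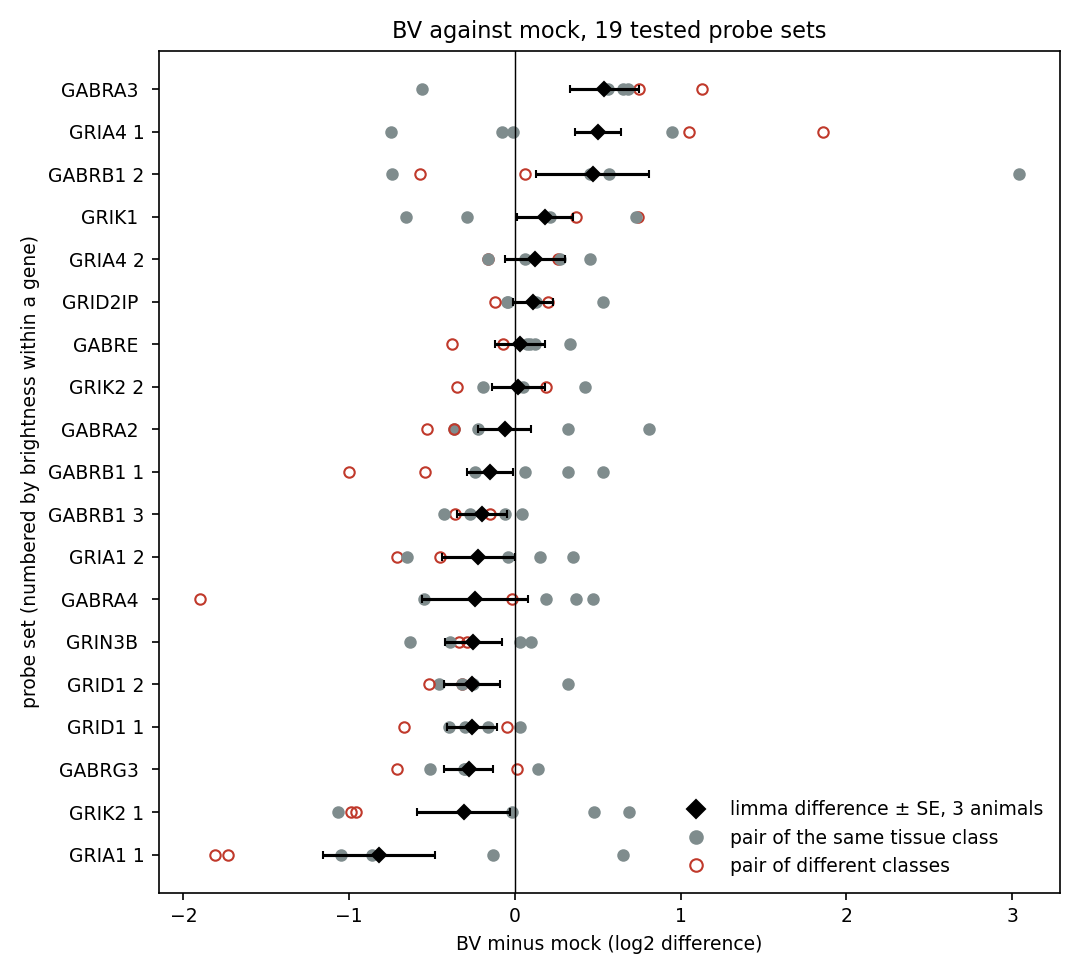
BV minus mock, as the log2 difference on the x axis, for 19 tested probe sets on the y axis: limma difference with its moderated standard error, from 3 animals (diamonds), single pairs of the same tissue class (grey) and pairs of different classes (open red). For GRIA1 1 the open points lie at -1.73 and -1.81 and for GRIA4 1 at 1.05 and 1.86, farther from 0 than the 4 grey points of the same row.

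Genes that work beside these receptors were listed with earlier results of these data known. Of 37 genes for glutamate receptor auxiliary subunits and scaffolds 20 were tested, and 0 passed in limma in either direction (1 higher and 1 lower at an unadjusted p under 0.05). Over all tested probe sets 0.0284% passed and 8.80% had an unadjusted p under 0.05. NPTX2, a secreted pentraxin that clusters AMPA receptors, had 1.27 ± 0.35 (limma adjusted p = 0.541). Its class difference was -1.17, with 7.22 to 9.74 in striatum-rich and 9.13 to 10.87 in other pieces, and 4 of the 6 other pieces carried BV; the part of tissue class in the BV difference was not tested. DLG1 and HOMER1, scaffolds of the postsynaptic density, had -0.41 ± 0.13 and -0.78 ± 0.35. For these 2 genes too the part of tissue class in the BV difference was not tested, and 4 of the 6 striatum-rich arrays were mock. By class, HOMER1 signals were 8.33 to 10.55 in striatum-rich and 7.59 to 7.83 in other pieces and DLG1 signals 9.60 to 10.23 and 8.76 to 9.34, so both were higher with ranges apart. CBLN4, a cerebellin, was lower, at 4.45 to 5.65 against 6.05 to 7.34. These 3 of 20 genes with ranges apart stand against 3.79% of all tested, and the list's median class difference was -0.17 against -0.01.

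Of 17 genes for GABA receptor scaffolds and partners 11 were tested, and 0 passed in limma (0 also at an unadjusted p under 0.05), with 2 of 11 differences above 0 and a median of -0.17. Over all tested 46.9% were above 0, the median was -0.02 and 8.80% had an unadjusted p under 0.05. GABARAPL2, GPHN (gephyrin, the scaffold of inhibitory synapses) and GABARAPL1 had -0.17 ± 0.10, -0.34 ± 0.20 and -0.30 ± 0.23. Of 23 genes for synthesis and transport of both transmitters 14 were tested and 0 passed in limma (1 higher and 1 lower at an unadjusted p under 0.05, against 8.80% in either direction over all tested). SLC1A2, the astrocyte glutamate transporter GLT-1, was lower in BV tissue by 1.00 ± 0.20 (limma adjusted p = 0.407), and the amino acid carriers SLC38A5 and SLC38A1 had 0.48 ± 0.19 and 0.53 ± 0.32. The GABA-synthesizing enzymes GAD1 and GAD2 had -0.03 ± 0.14 and 0.05 ± 0.18, and class differences of 0.24 and 0.12. Class ranges were apart for 0 of the 11 GABA receptor partners and 1 of the 14 synthesis and transport genes, against 3.79% of all tested. That 1 gene was SLC1A3, at 11.17 to 11.42 in striatum-rich and 10.27 to 11.16 in other pieces.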

How the data were processed

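Total RNA from 12 tissue pieces was hybridised to 1 array each, per the labels' protocols. The authors deposited linear probe set intensities, with a column for each array. GCOS 1.4.0.036 appears in the submitters' processing notes. The algorithm behind the summary and its scaling were not given in the sources used here. The deposited intensities had a trimmed mean of 100 on each piece 2 array and of 142 to 189 on the piece 1 arrays. The array sets were thus not on a common scale as deposited. Symbols came from a rhesus array annotation, in which 24969 probe sets have 1 symbol, 361 several and 27535 none listed; all 18 member symbols matched the reference table. Cynomolgus RNA may bind less well to rhesus probes. Arrays were quantile-normalized, 3.49 (the 10th percentile of intensities) was added before log2, 99 control probe sets were left out, and probe sets at or above the 40th percentile of mean log2 signal (31660) were tested. Pieces of a hemisphere were averaged and fitted in limma 3.58.1 (R 4.3.3) with animal as a block, trended eBayes and 2 degrees of freedom left; two-sided p-values were adjusted by Benjamini-Hochberg over all tested, with calls under 0.05. Standard errors (SE) of BV minus mock are the moderated ones of limma, with variances drawn toward a trend over all tested probe sets. They are therefore not the plain spread of the 3 animals. Each animal carried both treatments per the labels, and deviations of an animal's hemispheres correlated at 0.622, 0.156 and 0.361. The members, tissue classes and gene lists were chosen with earlier results of these data known. Values are given for the brightest probe set of each gene; by rule, genes described in full were those of largest class difference with ranges apart (none qualified), the 6 of smallest p for BV against mock, and a panel of 9, of which GRIA1, GRIN1 and GABRA2 have a probe set. GRIK2, GABRA4, GRM7, GRIN2C, SLC1A3 and the scaffolds described by class were chosen after their values were seen. Alternatives covered pseudocount, scaling, filter, block, piece number, single arrays and single animals. No sequences are printed.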

Additional observations from a re-analysis of the deposited data

Results flagged for a closer look

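Within the 6 arrays of a treatment, 3 of 38 sets of values of tested members had 1 array far from the rest by Dixon's test, while chance gives about 1 in 20. The second brightest GABRB1 probe set had 4.84 on mock replicate 6, with the nearest mock array at 6.41 and the farthest at 7.25. This is the array with an actin 3'/5' ratio of 2.40, and the part of that ratio was not tested. The dimmer GRIA1 probe set had 4.73 on BV replicate 5, with the nearest BV array at 5.25. GRIK1 had 6.79 on BV replicate 2, with the nearest BV array at 6.29.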

How the results depend on the processing

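The count of receptor probe sets called between BV and mock was 0 in 28 of 29 refits and 1 (GRIA1) without animal 2, so leaving out arrays or animals gave 0 to 1. The median difference moved from -0.15 to 0.03 in same-class pairs and ran from -0.18 to -0.01 when arrays or animals were left out. With the 6 pairs as a replicate block on single arrays, 0 of 19 members passed (2 at an unadjusted p under 0.05), and without a replicate block also 0; the pairing changed no call of a member. GABRA2 turned above 0 with the piece 1 arrays alone (0.26), and ran from -0.22 to 0.10 when arrays or animals were left out. The median class difference of 0.16 became -0.23 with no scaling, where the median over all tested was -0.45, and ran from 0.05 to 0.33 when arrays or animals were left out. The count of members with ranges of the classes apart was 2 with no scaling (4.53% of all tested), 1 with no filter (2.60%), 4 on mock arrays alone (27.2%), 7 on BV arrays alone (16.2%), 11 within piece 1 (39.1%) and 7 within piece 2 (35.3%), and 0 to 5 when arrays or animals were left out; ranges of fewer arrays part more easily. The settings for mock or BV arrays alone and the term for piece were chosen after seeing the data. Without mock replicate 5 the GRIA4 class difference was -1.11 and without BV replicate 5 -1.5. With no scaling the GABRA2, GABRG3 and GRID1 class differences were -0.15, -0.19 and -0.05. The GRIA4 piece 1 value of -2.52 rests on 1 striatum-rich array. No detection calls were used, so dim members carry no statement on presence.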
